A study of Mus musculus with 6 samples.

Results

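Interferon-stimulated genes are the genes that cells switch on in answer to type I interferon, and 44 of them, chosen by name from the known response, are described here in the mouse cell line MC38. Rows for 43 of the 44 were found among the 24181 genes of the count table, and Slfn2 was not analysed here. MC38 is a colon adenocarcinoma line that was kept in DMEM culture medium. The labels give 2 groups with 3 samples in each, parental cells (genotype WT) and cells that express STING-N153S, a STING variant with an amino acid substitution. Only the parental samples were analysed, because the labels do not say which columns of the count table belong to the STING-N153S samples, so no effect of STING-N153S is reported. Every value below is therefore a level in parental cells of this line, for which the labels name no treatment. The 3 parental libraries are numbered as biological replicates in the deposited annotation, nothing says that they came from separate cultures, and the spread between them may be technical.

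Type I interferon binds the receptor chains IFNAR1 and IFNAR2, whose kinases JAK1 and TYK2 phosphorylate STAT2. With IRF9, STAT2 is part of the factor ISGF3, which binds a promoter sequence called the interferon-stimulated response element (ISRE). Its targets include proteins that block virus entry, bind or cut viral RNA and conjugate ISG15 to other proteins, as well as IRF7, which raises interferon production, and USP18, which damps the receptor. STING lies upstream, where it passes a signal from sensors of DNA in the cytosol to interferon genes through TBK1 and IRF3.

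The ISRE itself could be read in the promoters of many members, and the sequences are shown because genes with the same element stood at very different levels. RefSeq promoters on GRCm38.p6, each with 250 bases before and 50 bases from the start of transcription, were matched to 34 of the 43 members. The element was searched on both strands as GAAA, 2 bases of any kind and GAAA again. At least 1 match was held by 15 of the 34 members (44.1%), against 3.99% of 27025 genes and 3.44% of 32851 promoters of the same length. A match is a description of the letters and not of a bound site. The stretches below run 5′ to 3′ on the strand of the gene and end before the start of transcription that the promoter table gives. For Ifit3, Ifit3b and Oas1a the annotated span of the gene begins further upstream than that start, so 84, 84 and 19 bases of these stretches lie inside the span. Capitals mark the matches, which begin and end with TTTC where the element lies on the other strand.
Bst2, chr8:71537567-71537622, minus strand: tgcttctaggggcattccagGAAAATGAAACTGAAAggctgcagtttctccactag
Isg15, chr4:156200855-156200916, minus strand: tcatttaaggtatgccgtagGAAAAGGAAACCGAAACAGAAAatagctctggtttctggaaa
Ifit1, chr19:34640765-34640833, plus strand: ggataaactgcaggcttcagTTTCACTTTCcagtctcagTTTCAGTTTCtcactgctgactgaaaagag
Ifit3, chr19:34583353-34583436, plus strand: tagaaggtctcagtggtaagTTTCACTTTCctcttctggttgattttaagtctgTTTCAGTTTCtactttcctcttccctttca
Ifit3b, chr19:34607749-34607832, plus strand: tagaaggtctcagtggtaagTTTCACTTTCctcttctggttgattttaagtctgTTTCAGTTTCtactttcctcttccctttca
Rsad2, chr12:26456543-26456592, minus strand: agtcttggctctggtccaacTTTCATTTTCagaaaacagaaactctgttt
Oas1a, chr5:120907526-120907565, minus strand: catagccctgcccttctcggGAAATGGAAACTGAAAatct
Oas1g, chr5:120887614-120887651, minus strand: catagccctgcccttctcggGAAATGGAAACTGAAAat
Oas3, chr5:120777705-120777754, minus strand: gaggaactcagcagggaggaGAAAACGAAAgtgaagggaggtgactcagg

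The stretches of Ifit3 and Ifit3b were the same over all 84 bases, and those of Oas1a and Oas1g over 38 of 38 bases compared. Isg15 carried 3 overlapping matches and Bst2 a pair of overlapping matches, while Oas3 and Rsad2 had 1 match each. Over the 15 members that held a match, the match nearest to the start of transcription began between positions -222 and 18, counted from 0 at the first base after that start, and 12 of the 15 lay upstream.

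**Figure D1:**
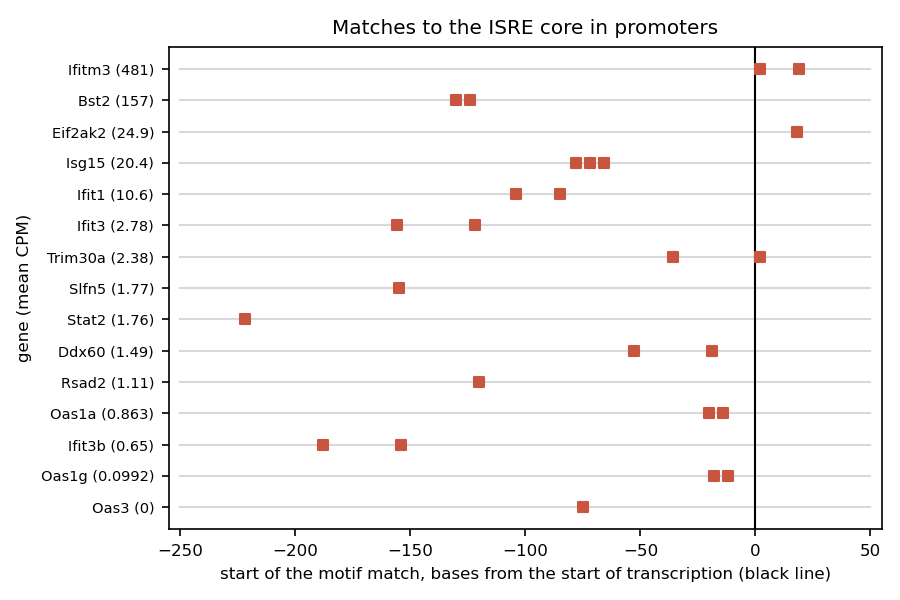
Matches to the ISRE core in the promoters of the 15 members that hold 1. The x axis gives the start of each match in bases from the start of transcription (black line), each grey line is the searched promoter, and genes are ordered by mean CPM, printed beside the name, from Oas3 at 0 counts to Ifitm3 at 481 CPM.

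Levels are given in CPM, a gene's count divided by the total of its library and scaled to the usual common size. The totals were 3358908, 4020023 and 3210024 counts in replicates 1 to 3. Counts came from the 3′ ends of transcripts, so a long transcript does not collect more of them along its body and CPM was compared between genes without division by length. A gene without a count could still be present at a level that gives up to 3 counts, which is 0.283 CPM over the 10588955 counts of the libraries together. Intervals below are exact 95% intervals and, like this floor, cover counting error only.

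Most members were counted at a low level, and in these bulk samples a low level in all cells and a higher level in few cells cannot be told apart. Of the 43 members, 34 (79.1%) averaged 1 CPM or more, against 49.5% of all genes. At 10 CPM the order was the other way, with 11 members (25.6%) against 31.2% of all genes, and 100 CPM was reached by 2 members (4.65%) against 8.54%. The members were thus gathered between these levels, with 23 of the 43 from 1 to under 10 CPM, 6 counted under 1 CPM and 3 without a count. Their median was 3.16 ± 0.59 CPM (SD, n = 3), beside 0.941 ± 0.0512 CPM for all genes, a median that includes the 18.1% of genes without a count. No test was made of these shares, since the members were chosen with earlier results of these data known.

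**Figure D2:**
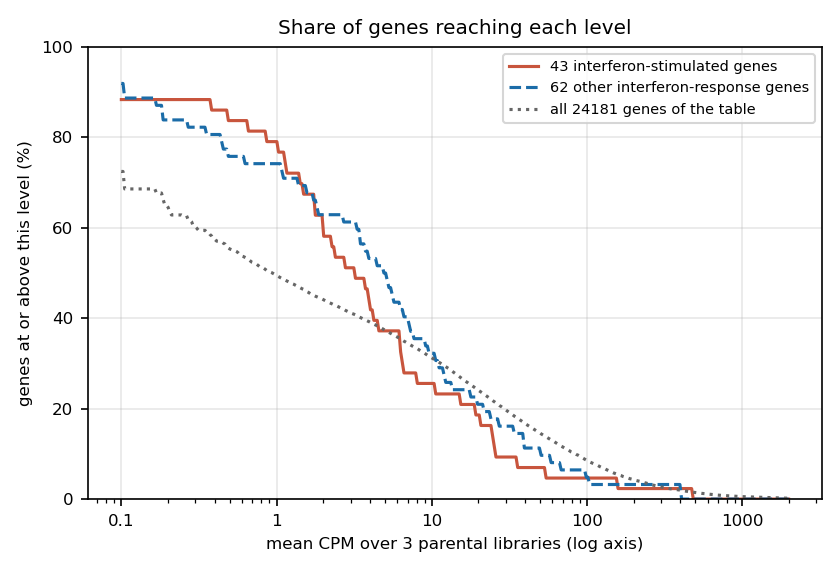
Share of genes at or above each mean CPM (x axis, log scale; y axis in percent) for the 43 members, 62 other interferon-response genes and all 24181 genes. The line of the members lies above that of all genes at 1 CPM (79.1% against 49.5%) and below it at 10 CPM (25.6% against 31.2%).

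Members that act at membranes and against virus entry had the highest counts. Ifitm3 (chromosome 7, 141009590 to 141010744), which holds entering viruses in endosomes, stood at 481, 470 and 494 CPM in replicates 1 to 3, with a mean of 481 ± 12.2 CPM (SD, n = 3). Bst2 (chromosome 8, 71534255 to 71537472), or tetherin, which holds budding virus at the cell surface, had 154, 159 and 159 CPM. The libraries lay within 1.05-fold of each other for Ifitm3 and 1.03-fold for Bst2, and the range of neither gene reached that of any other member. The count of Ifitm3 exceeded that of Bst2 at a ratio of 3.06 ± 0.096 (SD, n = 3; pooled interval 2.89 to 3.23). Its close relative Ifitm2, which is not a member, had 402 ± 22.5 CPM, so that Ifitm3 exceeded it at a ratio of 1.20 ± 0.097 (SD, n = 3).

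Those genes carried most of the summed signal. Ifitm3 alone made up 50.7%, 49.4% and 52.1% of all counts of members in replicates 1 to 3, and Ifitm3 and Bst2 together 67.3 ± 1.39% (SD, n = 3). The sum over all 43 members was 949 ± 1.53 CPM (SD, n = 3). Counting error was wider than this SD, with exact intervals of 915 to 981, 920 to 981 and 915 to 982 CPM in replicates 1 to 3. Over the 41 members without Ifitm3 and Bst2 the sum was 313, 321 and 295 CPM. Replicate 3 was the lowest of these sums without Ifitm3 and Bst2, and its interval, 277 to 314 CPM, overlapped those of the other libraries. A sum over all members is thus largely a reading of Ifitm3, both of whose ISRE matches lay just after the start of transcription, at 2 and 19 bases. In the transcripts of GENCODE M21, 13.97% of the 50-base words in the last 500 bases of Ifitm3 also occurred in another gene, most often Gm7676, and the treatment of reads that match several genes is not stated.

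The other members at membranes were lower. Ifi27l2a, a small membrane protein of the interferon alpha-inducible 27 family, had 26.8, 20.9 and 24.6 CPM. Rtp4, a chaperone for receptor transport, had 4.47, 7.71 and 6.54 CPM, so all 4 genes of this role exceeded 1 CPM.

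Members of nucleotide and RNA metabolism were split. Samhd1 (chromosome 2, 157097534 to 157135096), which hydrolyses the dNTPs that reverse transcription needs, had 53.0, 58.0 and 51.7 CPM, the next level after Bst2 and without overlap with it. Isg20, an RNA exonuclease, had 19.1, 17.4 and 19.9 CPM, and Samhd1 exceeded it at a ratio of 2.90 ± 0.38 (SD, n = 3). Against these, Rsad2 (viperin), whose product makes a chain-terminating nucleotide, had 2, 6 and 4 counts, a mean of 1.11 ± 0.46 CPM (SD, n = 3). Cmpk2, the nucleotide kinase encoded next to Rsad2 on chromosome 12, had 4, 1 and 0 counts. In replicate 1 Cmpk2 exceeded Rsad2 and in replicates 2 and 3 Rsad2 exceeded Cmpk2, so these neighbours could not be ordered.

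The IFIT genes, whose products bind foreign or incompletely capped RNA, lie together on chromosome 19 between 34550550 and 34650009 and differed in level from gene to gene. Ifit2 was the highest, at 25.3, 26.4 and 24.6 CPM. Relative to the mean, its SD was the smallest of these genes, at 3.48%, which is below the 10.6% that counting error alone gives. Ifit1 had 11.9, 10.2 and 9.66 CPM and was below Ifit2 in 3 of 3 libraries, with Ifit2 exceeding it by a factor of 2.42 ± 0.26 (SD, n = 3; pooled interval 1.93 to 3.03). Ifit1, the lower of these genes, holds a pair of ISRE matches, and the promoters of Ifit2 held none in the window searched.

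Ifit3 and Ifit3b share the promoter stretch shown above and were both lower. Ifit3 had 5, 10 and 14 counts and Ifit3b 3, 3 and 1, so that Ifit3 was above Ifit3b in 3 of 3 libraries. The pooled ratio was 4.14, with an interval of 1.78 to 11.2, and the libraries gave 1.67, 3.33 and 14. Of the 50-base words at the 3′ end of Ifit3, 14.9% also occurred elsewhere, most often in Ifit3b, and of those of Ifit3b 2.00%, most often in E2f1. Some counts may thus be split between Ifit3 and Ifit3b. Counting error alone gives a spread of 32.3% of the mean for Ifit3 and 65.8% for Ifit3b.

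The OAS genes encode enzymes and relatives of enzymes that answer double-stranded RNA, and no classical member reached 1 CPM. Oas1a had 2, 3 and 4 counts and Oas1g 1, 0 and 0. At the 3′ end, 56.1% of the words of Oas1a and 30.2% of those of Oas1g occurred in another gene, most often each other, so these counts may be split between them. Oas2 and Oas3 had 0 counts in every library, which allows up to 0.283 CPM each. None of the 3′ words of Oas2 and 4.10% of those of Oas3 were found in another gene. The promoter of Oas3 holds an ISRE match all the same.

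The OAS-like genes stood higher. Oasl1, whose product restrains the translation of Irf7, had 6.55, 5.97 and 6.54 CPM, and Oasl2 had 3.57, 4.73 and 4.36 CPM. Oasl1 was above Oasl2 in 3 of 3 libraries, by a factor of 1.53 ± 0.29 (SD, n = 3), with a pooled interval from 1.01 to 2.22 that nearly reached equality. Oasl1 exceeded Oas1a at a pooled ratio of 7.44 (interval 3.70 to 17.0).

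Among the other RNA sensors, Eif2ak2 (chromosome 17, 78850504 to 78882572), the kinase PKR that halts translation on binding double-stranded RNA, had 24.7, 29.4 and 20.6 CPM. Znfx1, a helicase that binds viral RNA, had 5.95, 9.45 and 4.05 CPM, with replicate 2 above and replicate 3 below the others for both genes. Ddx60, a helicase related to the RIG-I pathway, had 6, 7 and 3 counts. The MX GTPases, which trap viral nucleocapsids and are defective in most laboratory mouse strains, had the lowest median of the roles. Mx1 had 3, 1 and 0 counts, and Mx2 had 0 in every library, with no 3′ word in another gene.

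In the ISG15 system the modifier was counted well above its enzymes. Isg15 (chromosome 4, 156199424 to 156200818) had 22.03, 21.6 and 17.4 CPM. Herc6, the mouse ligase, had 4.17, 3.98 and 3.74 CPM, and Usp18, the protease that removes ISG15 and inhibits the receptor, 1.79, 1.74 and 2.49 CPM. Isg15 exceeded Herc6 at a ratio of 5.13 ± 0.41 and Usp18 at a ratio of 10.6 ± 3.11 (SD, n = 3). Uba7, the activating enzyme, had 0, 1 and 0 counts, and 33.0% of its 3′ words occurred in another gene, most often Gm20661. The level of this enzyme is uncertain at 1 count over the libraries (interval 0.00239 to 0.526 CPM), and shared words may add to this.

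The transcription factors of the response were low and close to each other. Irf7 had 6.25, 2.24 and 4.98 CPM, Irf9 3.57, 3.48 and 2.49 CPM, and Stat2 2.68, 1.99 and 0.623 CPM. Replicate 2 was the lowest for Irf7 and replicate 3 for Irf9 and Stat2, and the ranges of all 3 genes overlapped. Irf9 exceeded Stat2 in 3 of 3 libraries, but the pooled interval of their ratio, 0.992 to 3.32, included equality. The promoter of Stat2 held an ISRE match and those of Irf7 and Irf9 held none.

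Members around ADP-ribosylation were also low. Parp9 and the ubiquitin ligase Dtx3l, which bind each other as proteins, lie side by side on chromosome 16, where the annotated spans overlap between 35938470 and 35939027. Parp9 had 7.15, 5.47 and 6.23 CPM and Dtx3l 4.17, 3.48 and 3.43 CPM, a ratio of 1.70 ± 0.12 (SD, n = 3; pooled interval 1.122 to 2.58). No word at the 3′ end of either gene occurred in another gene. Parp14, further along the same chromosome, had 2, 5 and 4 counts and was below Parp9 in 3 of 3 libraries.

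All 10 remaining members exceeded 1 CPM on average. Ifi35, which binds the interferon-induced protein NMI, led them with 35.7, 38.3 and 33.3 CPM, and Lgals3bp, a secreted galectin-binding glycoprotein, followed with 16.1, 14.9 and 14.3 CPM. Tor3a, an ATPase of the endoplasmic reticulum, had 6.25, 8.96 and 8.72 CPM. The pro-apoptotic Xaf1, at 3.89 ± 1.22 CPM, and the TRIM protein Trim30a, at 2.38 ± 0.98 CPM, were followed by the nuclear body protein Sp100 with 2.27 ± 0.21 CPM (SD, n = 3). Phf11d had 1.97 ± 0.42 CPM, Slfn5 1.77 ± 0.91 CPM, Epsti1 1.41 ± 0.20 CPM and Ifi44 1.15 ± 0.94 CPM (SD, n = 3). Of the 3′ words of Phf11d, 22.5% occurred in another gene, most often Phf11c. Ifi44 had 2, 9 and 2 counts and so rests on replicate 2, without which its mean was 0.609 CPM.

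**Figure D3:**
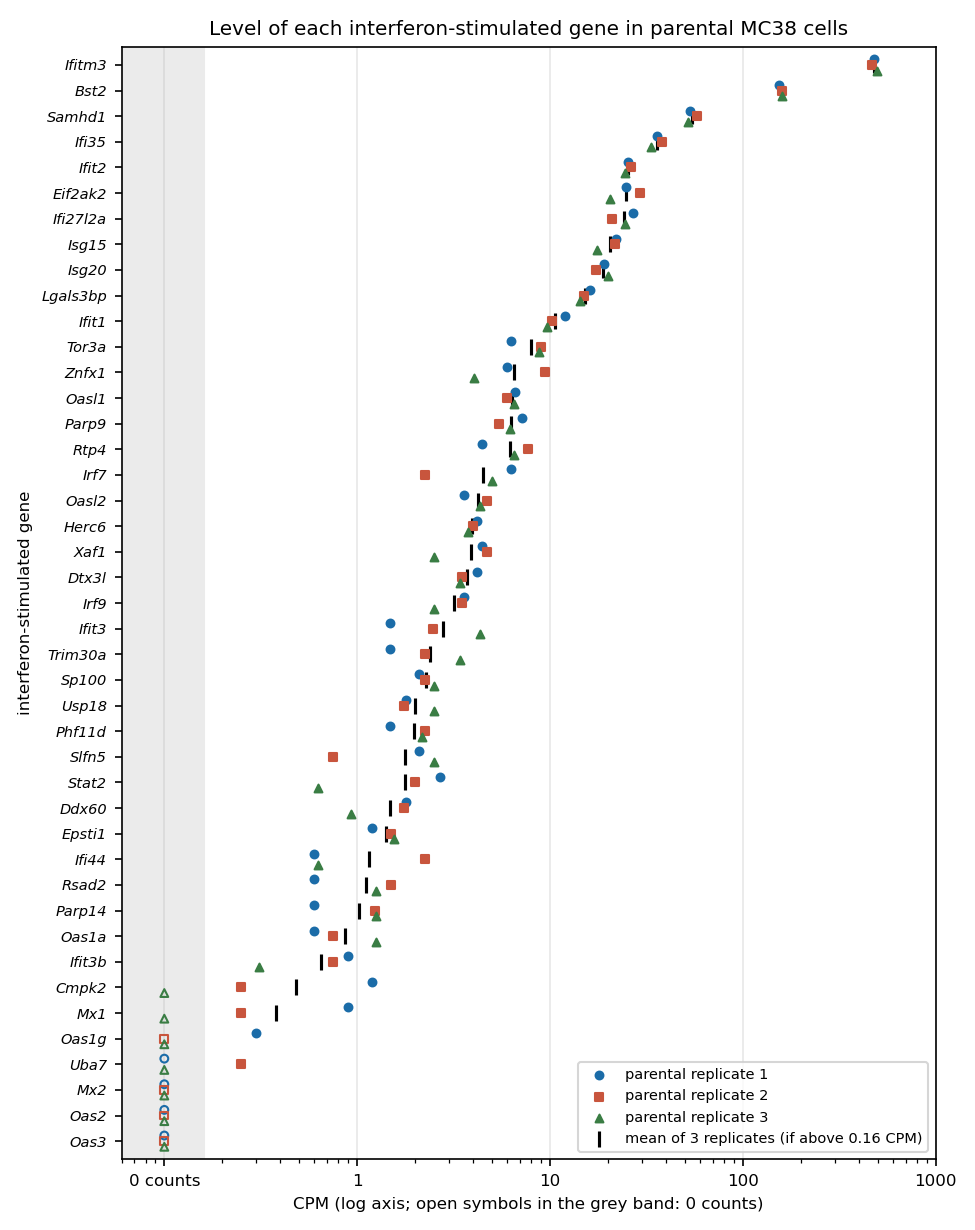
CPM of each of the 43 members in parental replicates 1 to 3 (symbols, log axis) with the mean as a black tick; open symbols in the grey band are libraries with 0 counts. Ifitm3 and Bst2 stand clear of the rest, and Mx2, Oas2 and Oas3 have 0 counts in every library.

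Ranges over the libraries separated neighbours in level only among the higher members. Of 39 pairs of neighbours in the order of the 40 members with a count, 7 had ranges over the libraries that did not overlap. By range, these set Ifitm3 above Bst2, Samhd1, Ifi35 and Ifit2 in that order, and Isg20 above Lgals3bp, Ifit1 and Tor3a. The exact intervals of pooled counts overlapped for Isg20 (16.2 to 21.5 CPM) and Lgals3bp (12.9 to 17.6 CPM). They also overlapped for Ifit1 (8.71 to 12.7 CPM) and Tor3a (6.41 to 9.93 CPM), so neither step was firm. Between Ifit2 and Isg20, and at every step below Tor3a, the ranges of neighbours overlapped. In the run Irf7, Oasl2, Herc6, Xaf1, Dtx3l and Irf9, these libraries set no step between neighbours. Members further apart could have separate ranges, as Herc6 (3.74 to 4.17 CPM) and Irf9 (2.49 to 3.57 CPM) did. The exact intervals of their pooled counts overlapped, at 2.86 to 5.36 and 2.22 to 4.49 CPM, so Herc6 and Irf9 could not be ordered.

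Members with and without an ISRE match covered overlapping ranges of level. Members with a match ran from 0 CPM (Oas3) to 481 CPM (Ifitm3), with a median of 1.77 CPM, and the 19 members without a match ran from 0.0829 CPM (Uba7) to 54.2 CPM (Samhd1), with a median of 3.96 CPM. At least 10 CPM was reached by 5 of the 15 with a match and 5 of the 19 without. The gamma-activated site, a promoter sequence of the response to interferon gamma, was searched as TTCNNNGAA, which reads the same on both strands, and was found in 8 of the 34 members (23.5%) against 9.55% of all genes. Of those 8, 7 reached 10 CPM, namely Ifitm3, Bst2, Samhd1, Ifi35, Ifit2, Eif2ak2 and Isg20, and Oas1a did not. Of the 26 members without this sequence, 3 reached 10 CPM. Over all genes with a promoter and a row the order was the other way, with 42.1% of those that hold the sequence and 47.9% of those that do not at 10 CPM or more (medians 5.41 and 8.56 CPM). For the ISRE these shares over all genes were 43.9% and 47.6%. These are counts over promoters that were matched by name, with no test, and the split by the gamma-activated site was looked at after the levels were known.

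The levels were then compared between the parental libraries, which compares libraries and not conditions. Each gene's counts were set against library size by chi-square, with Benjamini-Hochberg adjustment over 11118 genes. By this test 311 genes (2.80%) differed between the libraries beyond counting noise, and 0 of the 29 members with enough counts to be tested did. At an unadjusted p below 0.05 there were 2 of the 29 (6.90%), against 13.2% of all genes tested. Those were Znfx1 (unadjusted p = 0.0183, adjusted p = 0.233) and Irf7 (unadjusted p = 0.0248, adjusted p = 0.277). Without replicate 3 the number of all genes that differed was 61, and that of members was still 0. For 23 of the 38 members with 3 or more counts, the SD between libraries was below the SD that counting error alone gives, a share of 60.5% beside 53.6% of the 15197 genes with as many counts. The other 14 members had an expected count under 5 in some library and were not tested, so a difference between libraries in them was not detectable at this depth. The spread of Ifitm3, 2.54% of its mean, was near the 2.44% that counting gives, while Irf7 spread by 45.7% where counting gives 25.7%.

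**Figure D4:**
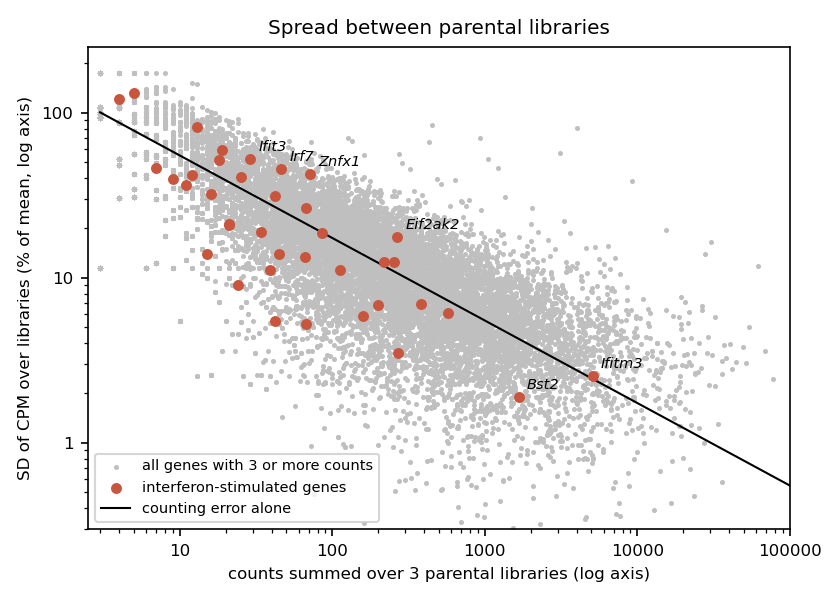
SD of CPM over the 3 parental libraries as a percentage of the mean (y axis, log) against counts summed over the libraries (x axis, log) for all genes with 3 or more counts (grey) and the members among them (red). The black line is the spread from counting error alone, and 23 of the 38 members with 3 or more counts lie under it.

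The rest of the pathway was counted over the same range. Of the receptor and kinase genes, Jak1 was the highest, with 121 ± 9.27 CPM, and Tyk2 the lowest, with 4, 2 and 4 counts (SD, n = 3). Jak1 exceeded Tyk2 at a pooled ratio of 127 (interval 69.0 to 266). The receptor chain genes Ifnar2 and Ifnar1 had a ratio of 1.66 ± 0.70 (SD, n = 3), higher for Ifnar2 in 3 of 3 libraries. Of a list of 9 genes that mostly restrain the response, 8 were analysed and 7 (87.5%) exceeded 10 CPM, against 31.2% of all genes. The phosphatases Ptpn1, at 91.3 ± 8.69 CPM, and Ptpn2, at 88.2 ± 5.51 CPM (SD, n = 3), led them. Socs1, which blocks JAK kinases, had 47.5 ± 6.15 CPM and Socs3 17.3 ± 1.45 CPM (SD, n = 3), and Ptpn6, a phosphatase of blood cells, had 0 counts. Usp18, the member with a like role, lay below those 7 at 2.01 ± 0.42 CPM (SD, n = 3).

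A further list of 66 interferon-response genes outside the members, 62 of them analysed, is given beside the members with no test. A mean of 1 CPM was reached by 46 (74.2%) and of 10 CPM by 20 (32.3%), and the median was 4.83 ± 0.23 CPM (SD, n = 3). Ifitm2, B2m, at 399 ± 7.95 CPM, and the immunoproteasome subunit Psmb8, at 102 ± 6.84 CPM (SD, n = 3), led it, and Ifi44l, Slfn1 and Slfn8 had 0 counts. By the chi-square test, 0 of the 43 genes of the list that were tested varied between the libraries, as for the members, against 2.80% of all genes tested. At an unadjusted p below 0.05 there were 3 (6.98%), against 13.2% of all genes tested.

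Most markers of immune cells, which also express interferon-stimulated genes, were at or near 0, with Cd14 and Tcf4 as exceptions. Ptprc, the pan-leukocyte marker, had 1 count over the libraries, 0 of 5 lymphoid markers and 0 of 4 endothelial markers reached 1 CPM, and of 5 myeloid markers analysed of 8 listed Cd14 alone did, with 22.1 ± 0.81 CPM (SD, n = 3). Of the markers of plasmacytoid dendritic cells, where Bst2 is also made, 2 were analysed: Siglech had 0 counts, and the transcription factor gene Tcf4, which many other cell types also express, had 60.2 ± 7.47 CPM (SD, n = 3). The label is a colon adenocarcinoma, and 0 of the 5 intestinal epithelial markers analysed of 11 listed reached 1 CPM (Krt8, Krt19, Vil1, Cdx1 and Lgr5). Of 5 mesenchymal genes, 5 reached 1 CPM, 4 reached 10 CPM and 3 reached 100 CPM. The highest of them, Vim, had 3058 ± 176 CPM (SD, n = 3).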

How the data were processed

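The values are whole-number counts per gene of 3′-end libraries of MC38 cells, deposited without normalization. Per the file headers, the genome was GRCm38, the annotation GENCODE M25, and the authors ran Picard 2.18.26, STAR 2.7.5b and Drop-seq tools without trimming. Collapsing of molecular identifiers, use of strand and handling of reads that match several genes are not stated there. Genotype and replicate number tied 3 wild-type columns to the parental samples. The other 6 columns of per-sample values, in 2 sets against 3 STING-N153S samples, were not used, so the planned comparison with edgeR was not run. Members and lists were chosen with earlier results of these data known. All members may be named, and of other lists the 3 highest genes, genes at 0 counts and the receptor genes; other genes were named after their values were seen, and 1 gene of these lists is not reported here.

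CPM were computed from library totals. The chi-square test used sizes scaled by median ratios, a minimum expected count of 5 per library and a threshold of 0.05, and was checked on simulated counts. Its p-values refer to counting noise between these libraries only. Ratios have Clopper-Pearson intervals and sums exact Poisson intervals. The 3′ words are from GENCODE M21 transcripts, both strands, since M25 was not used here; positions and promoters are RefSeq GRCm38.p6. Tools were Python 3.11.15 with scipy 1.17.1, pandas 2.3.3, numpy 2.4.6 and matplotlib 3.10.9, and R 4.3.3 with edgeR 4.0.16 (TMM) and DESeq2 1.42.0 (size factors). Alternatives changed scaling, minimum level, expected count and libraries.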

Additional observations from a re-analysis of the deposited data

How the results depend on the processing

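The number of members that varied between parental libraries was 0 under every alternative run, while the number of all genes that varied, 311, ran from 61 to 274 when 1 library was left out and was lowest without parental replicate 3. The number of all genes that varied was 213 without replicate 1, 274 without replicate 2 and 61 without replicate 3. Each of these runs used the same number of libraries, and the reason for the difference was not tested. With all libraries it was 286 with library totals and 322 with an expected count of at least 10. Members at 1 CPM or more, 34 in all, numbered 31 to 34 with 1 library left out. Rsad2, Parp14 and Ifi44 dropped under 1 CPM without replicate 2, so levels near 1 CPM are uncertain. A minimum of 0.5 CPM gave 36 members and a minimum of 2 CPM gave 26. Members at 10 CPM or more, 11 in all, numbered 10 to 11 with 1 library left out. Here a minimum of 5 CPM gave 16 members and a minimum of 20 CPM gave 8. The summed level rose from 949 to 1045 CPM when the 20 highest genes were taken out of the totals, which enlarges all other CPM. With 1 library left out the summed level ran from 948 to 949 CPM, a range narrower than the counting intervals of the single libraries. The median ran from 2.96 to 3.50 CPM. Leaving out 1 library moved 5 single means by over 1.5-fold, those of Cmpk2 and Mx1 (0.124 CPM each) and Oas1g (0 counts left) without replicate 1, and of Uba7 (0 counts left) and Ifi44 (0.609 CPM) without replicate 2. Alternatives fixed for STING-N153S against parental cells were not run, since that comparison was not made. No paired analysis was possible because no second group was mapped to columns. Depth limits the 14 members that were not tested.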
